A study of Mus musculus with 6 samples.

Results

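Activins are dimers of the beta subunits encoded by *Inhba* and *Inhbb*, and inhibins pair one of these subunits with the alpha subunit encoded by *Inha*. Activins bind a type II receptor (*Acvr2a* or *Acvr2b*), which recruits the type I receptor encoded by *Acvr1b* and signals through Smad2 and Smad3. Follistatin (*Fst*) and follistatin-like 3 (*Fstl3*) trap activins outside the cell, inhibins compete for the type II receptors, and *Bambi* encodes a pseudoreceptor without a kinase domain. In bone, activin A is laid down in the matrix and is known to favor osteoclast formation. The 9 genes named here were followed through the array, and every probe that the platform annotation assigns to one of them was taken. 8 of the 9 genes have a probe, 1 probe each, among 25697 probes for 16593 genes on the array. No probe is assigned to *Fstl3*, which was not analysed here.

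Expression was measured on 6 Illumina MouseRef-8 arrays of calvaria cells from C57BL/6 mice, 3 labelled *Mmp13* knock out and 3 labelled wildtype. The paper describes these arrays differently, as *Osx1*-positive cells sorted for green fluorescent protein (GFP), from ERα f/f;GFP:*Osx1-Cre* mice, in which the estrogen receptor alpha gene is deleted, or from GFP:*Osx1-Cre* controls. Both groups therefore carry the *Cre* transgene, which is driven by the promoter of *Osx1* (*Sp7*), a transcription factor of osteoblast progenitors. The paper's methods take calvaria cells of *Osx1-Cre* ERα deleted mice from pups a few days old and culture them. Nothing in the methods ties each array to a culture or animal of its own. The probes for *Mmp13* go against the label. All 3 of them were higher on the arrays labelled as its knock out, and the brightest read 12.7 ± 0.26 (SD, n = 3) on the log2 scale there and 9.35 ± 0.42 (SD, n = 3) on the arrays labelled wildtype. The probes for *Esr1*, which encodes ERα, were not detected on any of the 6 arrays, so a deletion of *Esr1* could not be read from these values. The groups are therefore called by their labels throughout, and every direction below is that of the arrays labelled knock out over those labelled wildtype.

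Values are background-corrected, quantile normalized log2 signals. A probe counts as detected on an array where its detection p, the share of negative controls at least as bright, was under 0.01. The test, limma's moderated test, took in the 11089 probes that 3 or more arrays detected, and a probe passed where its adjusted p was under 0.05. Each array detected 40.2% to 43.6% of the probes. The array labelled wildtype 2 lay over 2 log2 from the mean of the other arrays of its group at 150 probes, the one labelled wildtype 3 at 79, and the other 4 arrays at 6 or fewer. Of the scanner columns, 2 labelled knock out carry one heading and cannot be matched to replicate 2 or 3, so they are called knock out A and knock out B.

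The activin subunit genes *Inhba* and *Inhbb* were lower on the arrays labelled knock out, the antagonist *Fst* was higher, and the type II receptor *Acvr2b* was slightly higher without passing the test. *Inha*, *Acvr1b* and *Bambi* were not detected on any array and *Acvr2a* on 1 array. Thus 4 of the 8 probes were tested, of which 2 passed as lower and 1 as higher. Over the array, 18.1% of the tested probes passed, 8.86% as higher and 9.22% as lower. With 1 probe kept per gene, the brightest, 9.62% of the genes passed as higher. The 9 genes were chosen by their known roles with the values of this same contrast in view, so their values are a description and nothing is read from the count.

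**Figure D1:**
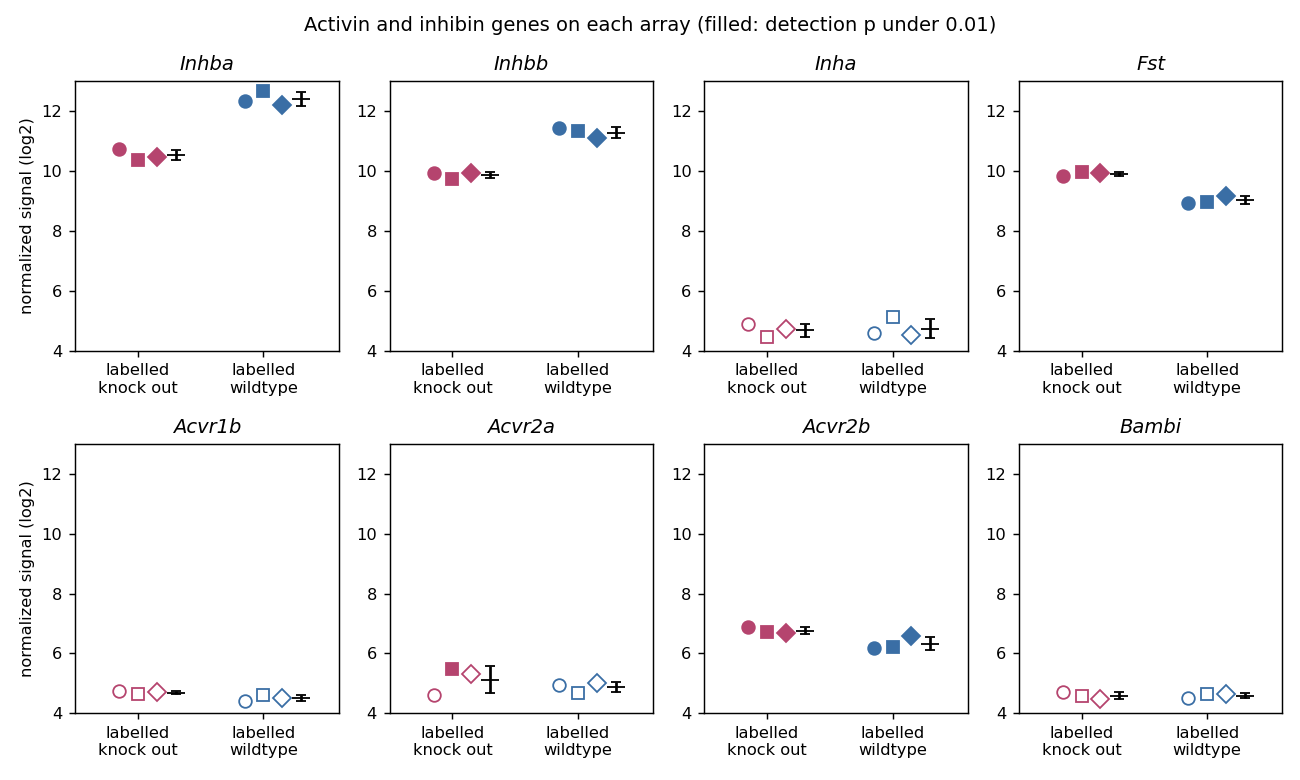
Normalized log2 signal (vertical axis) of the 8 genes with a probe on each of the 3 arrays labelled knock out and the 3 labelled wildtype. Symbols are arrays (circle, replicate 1; among arrays labelled knock out the square and diamond are A and B, among those labelled wildtype replicates 2 and 3), filled where the detection p was under 0.01, and bars are the mean and SD. The groups lie far apart for Inhba and Inhbb, closer for Fst, and nearly touch for Acvr2b, while most points of the other genes are open.

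*Inhba* encodes the beta A subunit, which forms activin A. Its probe (ILMN_2868220, designed on NM_008380) was detected on all 6 arrays. It read 10.72, 10.38 and 10.48 on the arrays labelled knock out (replicate 1, then A and B) and 12.32, 12.66 and 12.21 on the arrays labelled wildtype 1, 2 and 3. The lowest array labelled wildtype thus lay 1.49 log2 above the highest array labelled knock out. The means were 10.53 ± 0.18 (SD, n = 3) and 12.4 ± 0.23 (SD, n = 3), a log2 fold change of -1.87 (standard error 0.16), or 3.65-fold lower, which passed the test. Only 28 of the 11089 tested probes had a lower fold change. Before normalization the scanner signals were 1176.1, 1576.3 and 1480.3 against 5548.6, 7932.9 and 4752.7, so the groups were already apart in the unprocessed signals.

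*Inhbb* encodes the beta B subunit, which forms activin B and, with the beta A subunit, activin AB. Its probe (ILMN_2653725, NM_008381) read 9.92, 9.74 and 9.93 on the arrays labelled knock out and 11.43, 11.33 and 11.09 on those labelled wildtype. Here too all 3 arrays of one group lay below all 3 of the other, with 1.15 log2 between the nearest arrays. The means were 9.86 ± 0.11 and 11.28 ± 0.18 (SD, n = 3 each), a log2 fold change of -1.42 (standard error 0.13), or 2.67-fold lower, which passed the test. The array labelled wildtype 2 was the highest for *Inhba* but not for *Inhbb*, for which wildtype 1 was the highest, and wildtype 3 was the lowest of its group for both.

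The stretches before the starts of these genes are shown because both genes passed the test. Each is the 250 bases upstream of the start that RefSeq gives (GRCm38.p6), 5′ to 3′ on the strand of the gene, at chr13:16011601-16011850 (plus strand) for *Inhba* and chr1:119422249-119422498 (minus strand) for *Inhbb*. Capitals mark matches to any of the motifs searched.
Inhba: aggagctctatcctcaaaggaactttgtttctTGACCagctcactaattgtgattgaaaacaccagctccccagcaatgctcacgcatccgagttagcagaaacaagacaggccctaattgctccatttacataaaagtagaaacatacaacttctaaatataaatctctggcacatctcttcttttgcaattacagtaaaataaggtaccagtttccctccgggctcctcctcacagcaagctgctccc
Inhbb: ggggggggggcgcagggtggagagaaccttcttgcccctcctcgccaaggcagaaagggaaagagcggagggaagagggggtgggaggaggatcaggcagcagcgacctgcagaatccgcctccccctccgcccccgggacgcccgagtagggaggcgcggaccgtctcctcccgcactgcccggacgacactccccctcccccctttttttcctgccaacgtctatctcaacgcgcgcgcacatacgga

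The *Inhba* window is 43.2% G or C and the *Inhbb* window 68.0%, against a median of 52.4% over all windows. RefSeq's span of *Inhba* begins upstream of its window, so the start of another transcript may lie outside it. Both strands were searched for the full estrogen response element, its core GGTCA (which the full element holds on both strands), the AP-1 motif (TGANTCA), the CRE motif (TGACGTCA) and the Smad box (GTCTAGAC). The *Inhba* window holds 1 core, on the opposite strand from base -218 to base -214 counted from the start, and none of the other motifs. The *Inhbb* window holds none of them. The same search found 1 core in the window of *Inha*, a gene not detected on any array, from base -68 to base -64. The windows of *Acvr1b*, *Acvr2a* and *Acvr2b* hold none of the motifs. Of all 32851 windows of this length, 35.2% hold a core, 0.0639% the full element, 6.75% the AP-1 motif, 1.55% the CRE motif and 0.167% the Smad box. A match or its absence in these windows is a description of the letters and says nothing of binding. Of the 8 genes, 6 have a window in the table used, and *Fst*, which also passed the test, is not among them.

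*Inha*, the alpha subunit that turns an activin subunit into an inhibin and is best known from the gonads, was not detected. Its detection p ran from 0.0413 to 0.586 over the 6 arrays, and its scanner signals ran from 76.7 to 103.5. Its normalized values of 4.68 ± 0.22 and 4.74 ± 0.32 (SD, n = 3 each, arrays labelled knock out and wildtype) overlapped and lay below the lowest signal called detected, so no fold is given.

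*Fst* encodes follistatin, which binds activins and keeps them from their receptors. Its probe (ILMN_1228958, NM_008046) was detected on all 6 arrays and read 9.82, 9.96 and 9.92 on the arrays labelled knock out and 8.92, 8.96 and 9.17 on those labelled wildtype. All arrays labelled knock out were higher, the nearest by 0.65 log2. The means were 9.9 ± 0.07 and 9.02 ± 0.13 (SD, n = 3 each), a log2 fold change of 0.88 (standard error 0.11), or 1.84-fold higher, which passed the test. It did not pass when arrays were scaled by their medians in place of quantile normalization (0.68, standard error 0.25), a scaling that moved the median of all tested probes to -0.167. In the scanner signals, not normalized, *Fst* read 647.1 on the array labelled knock out 1 and 686.1 on the array labelled wildtype 2, so there the groups overlapped. Knock out 1 was the dimmest array, with a median signal of 85.1 against 95.3 to 108.9 on the others.

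*Acvr2b* encodes a type II receptor that binds activins and related ligands with high affinity. Its probe (ILMN_1230145, NM_007397) was detected on all 6 arrays, dimly, with scanner signals from 139.7 to 186.4. It read 6.89, 6.73 and 6.67 on the arrays labelled knock out and 6.18, 6.21 and 6.57 on those labelled wildtype. The groups did not overlap, but only 0.1 log2 parted them, at the array labelled wildtype 3. Groups did not overlap at 42.4% of all tested probes, 20.3% in this direction and 22.1% in the other. The log2 fold change of 0.44 (standard error 0.14) did not pass the test. Without the array labelled wildtype 3 it was 0.57 (standard error 0.12) and passed, in a fit that called 31.4% of all tested probes against 18.1% in the main setting.

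The remaining receptors were at or near background. *Acvr2a*, the other type II receptor, was detected only on knock out A. Its detection p-values there, on knock out B and over the remaining arrays were 0.00501, 0.0138 and between 0.0489 and 0.237. Its values were 4.62, 5.48 and 5.3 on the arrays labelled knock out against 4.95, 4.69 and 5.0, so the groups overlapped. When the filter was loosened to a detection p under 0.05 on at least 3 arrays, *Acvr2a* was tested and did not pass. *Acvr1b*, the type I receptor of activins, had detection p from 0.13 to 0.767 and read 4.69 ± 0.05 and 4.51 ± 0.1 (SD, n = 3 each). *Bambi* had detection p from 0.172 to 0.508 and read 4.59 ± 0.11 and 4.59 ± 0.08. None of the 4 genes left out by the filter passed when all probes were tested. No fold is given for them, since the means of both groups lay below the lowest signal called detected.

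**Figure D2:**
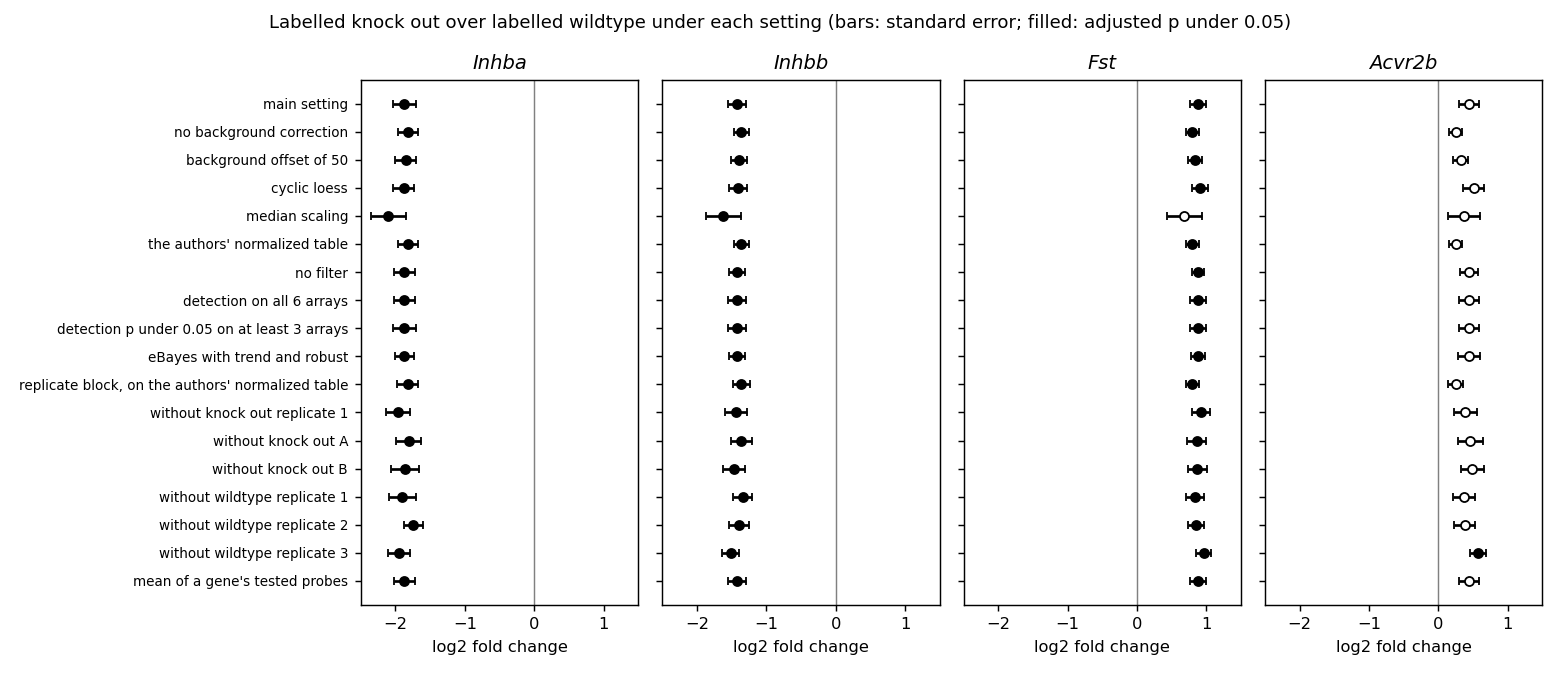
Log2 fold change (horizontal axis, arrays labelled knock out over those labelled wildtype) of the 4 tested genes under the main setting and each alternative, with standard errors as bars and filled points where the adjusted p was under 0.05. Inhba stays between -2.1 and -1.74 and Inhbb between -1.62 and -1.34, Fst is open under median scaling alone, and Acvr2b is filled only without the array labelled wildtype 3.

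The falls of *Inhba* and *Inhbb* passed under all 17 alternatives run. Of these, 2 gave the same values (no background correction and the authors' table), and the mean over probes cannot alter a gene with 1 probe. Both stayed lower, with log2 fold changes from -2.1 to -1.74 and from -1.62 to -1.34. *Fst* passed under 16 of 17 and stayed between 0.68 and 0.96. In the authors' own normalized table, which holds no background correction, *Inhba* read 10.76, 10.42 and 10.52 on the arrays labelled knock out 1, 2 and 3 and 12.31, 12.65 and 12.21 on those labelled wildtype. *Acvr2b*, the dimmest tested gene of the group, had a log2 fold change of 0.25 in that table, against 0.44 after background correction.

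Genes of macrophages, a cell type that also makes activin A, moved with the subunit genes. Of 20 macrophage and osteoclast markers listed, 18 have a probe and 11 were tested, of which 10 were lower, none was higher and 1 (*Ctsk*) did not pass. Over all 7695 tested genes 9.93% were lower. The median log2 fold change of the tested markers was -1.8, against -0.04 over all tested genes. Where detection on all 6 arrays was required, 3 of 4 were lower. Of the 10, *Cd14*, *Lyz2* and *Laptm5* were detected on all arrays. *Tyrobp* and *C1qa* were detected on no array labelled knock out, so they entered the test only through the arrays on which they were high. The count of lower markers and the median thus rest in part on values at background. The log2 fold change was -1.84 for the lipopolysaccharide co-receptor gene *Cd14* (adjusted p = 0.00082), -1.51 for the lysozyme gene *Lyz2* (adjusted p = 0.0017) and -1.07 for *Laptm5* (adjusted p = 0.0017). The summed linear normalized signal of the list ran from 6396 to 6797 on the arrays labelled knock out and from 8986 to 10430 on those labelled wildtype, and without *Ctsk*, a choice made after seeing the data, from 1909 to 2006 and from 4690 to 6162. *Ptprc*, *Itgam*, *Acp5*, *Ocstamp* and *Dcstamp* were not detected on any array. *Mrc1* was detected on 2 arrays labelled wildtype and *Aif1* on 1 labelled knock out, so neither was tested. *Aif1* read 5.16 and 5.21 on average on the arrays labelled knock out and wildtype. The 10 markers stayed lower without the array labelled wildtype 2. The paper describes a sort by scatter, doublet and GFP gates before the RNA was taken. The part of such cells in the levels of *Inhba* and *Inhbb* was not tested, and in RNA from many cells fewer cells of a type and less RNA per cell cannot be told apart.

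**Figure D3:**
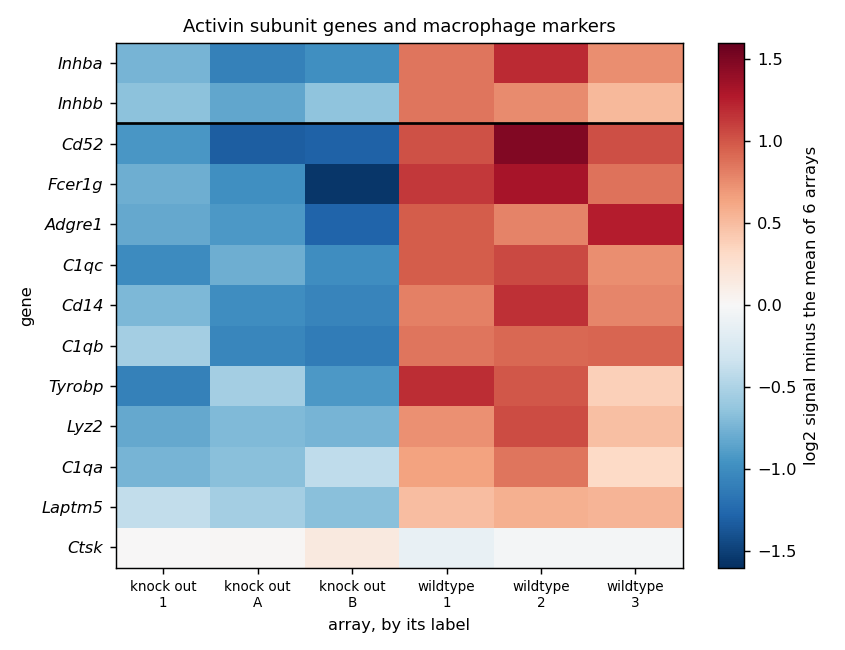
Log2 signal minus the mean over 6 arrays (color) of Inhba and Inhbb, above the line, and of the 11 tested macrophage and osteoclast markers, below it, on each array (columns, by label). All rows but that of Ctsk are low on the 3 arrays labelled knock out and high on the 3 labelled wildtype.

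Markers of other lineages moved as well. Of 9 tested osteoblast lineage genes 4 were higher and 1 was lower, against 9.62% and 9.93% of all tested genes. Of the 4, *Ibsp* was detected on no array labelled wildtype, so it entered the test only through the arrays on which it was high. The lower gene was *Sp7*, whose promoter drives the GFP used in the sort. *Sp7* was detected on all 6 arrays and fell by 0.8 (standard error 0.12, adjusted p = 0.0073), from 10.23 ± 0.16 to 9.44 ± 0.1 (SD, n = 3 each), while *Bglap2* (1.48, adjusted p = 0.0041) and *Alpl* (1.02, adjusted p = 0.025) rose. Of 3 tested keratinocyte markers 2 were lower, and *Krt10* did not pass (-0.33, adjusted p = 0.054). The groups did not overlap at any of the 3, but this held for 42.4% of all tested probes, 22.1% as lower. *Lor*, which encodes a protein of the cornified envelope, was detected on all arrays with a log2 fold change of -1.34 (adjusted p = 0.00073), while *Sfn* was detected on 1 array labelled knock out. The summed signal of the keratinocyte list ran from 378.8 to 422.6 on the arrays labelled knock out and from 611.2 to 636.9 on those labelled wildtype. Of the other lists, 1 of 2 tested muscle markers was lower, none of 3 endothelial and none of 3 chondrocyte markers passed, and no erythroid marker was detected. The defining endothelial genes *Pecam1* and *Cdh5* and the keratinocyte genes *Krt5* and *Krt14* were not detected on any array. Whether any of these moved the subunit genes was not tested.

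The genes most like *Inhba* over the 6 arrays, by Pearson's r of the brightest probe of each gene, were *Hspb7* (r = 0.9993), *Cd52* (0.9991), *BC031181* (0.9985), *Cd14* (0.9985) and *Hebp1* (0.9969). Those most like *Inhbb* were *Fbxo32* (0.9981), *Arf6* (0.998), *Ggct* (0.9974), *Rassf5* (0.9971) and *Tnc* (0.997), the last encoding the matrix protein tenascin C. For *Fst*, added after seeing the data, they were *Lrba*, *Scara3*, *Cdkn1c*, *Col26a1* and *Denn2b* (r from 0.9973 to 0.999). These 6 points form 2 groups, so a high r mostly restates the difference between the groups, and 379 of 7694 genes had an r above 0.95 with *Inhba*, 363 with *Inhbb* and 474 with *Fst*. Of the genes most like *Inhba*, *Cd52* and *Cd14* belong to the macrophage list, and none of those named as most like *Inhbb* does. The r between *Inhba* and *Inhbb* was itself 0.99, and macrophage markers with an r above 0.95 were not counted for either gene. *Cd52* was detected on only 1 array labelled knock out, so its r rests in part on values at background.

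The rest of the pathway was followed in 5 lists of other ligands, receptors, binding proteins, transducers and targets. Of their 56 genes, 46 have a probe and 28 were tested, of which 1 passed as higher and 4 as lower, leaving 23. The 17.9% that passed is close to the 19.5% of all tested genes, and the median log2 fold change of the 28 was -0.02.

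Of 7 other ligands of the activin and nodal branch with a probe, *Inhbc*, *Inhbe*, *Mstn* (myostatin), *Gdf3*, *Nodal* and *Lefty2* were not detected on any array. The subunits of *Inhba* and *Inhbb* were thus the inhibin beta subunits with a signal here. *Lefty1*, an antagonist of Nodal, read 6.98, 7.18 and 7.09 on the arrays labelled knock out and 7.63, 7.52 and 7.49 on those labelled wildtype, with no overlap. It fell by 0.46 (standard error 0.11, adjusted p = 0.028), but did not pass under 6 of 17 alternatives, among them leaving out the array labelled wildtype 1 or any array labelled knock out.

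Of 7 tested receptors and co-receptors, none was higher, 1 was lower and 6 did not pass. Without the array labelled wildtype 3, 1 was higher and 2 were lower, in a fit that called 31.4% of all tested probes against 18.1% in the main setting. *Acvrl1*, a type I receptor best known from endothelial cells, fell by 0.75 (standard error 0.15, adjusted p = 0.02), and was not called without the array labelled wildtype 1, without any array labelled knock out or under median scaling. *Acvr1*, a type I receptor that activin A can occupy without signaling through Smad2, had a log2 fold change of 0.07 (standard error 0.16), and *Tgfbr3* (betaglycan), the co-receptor of inhibin, -0.13 (standard error 0.17). *Acvr1c*, the type I receptor for activin B and Nodal, and the Nodal co-receptor genes *Tdgf1* and *Cfc1* were not detected on any array.

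Of 5 tested genes for extracellular processing and binding, 1 was higher. The count was 2 without background correction, at a background offset of 50, in the authors' table and with detection required on all 6 arrays. It was also 2 under the alternative variance model and without the array labelled wildtype 2. None was called without the array labelled wildtype 1, knock out 1 or knock out B. *Htra3*, a secreted serine protease, read 7.96, 7.6 and 7.93 against 6.4, 7.16 and 6.44 and rose by 1.16 (standard error 0.23, adjusted p = 0.018). The array labelled wildtype 2 was the highest of its group, and the rise was not called without the array labelled wildtype 1, knock out 1 or knock out B. *Furin*, a protease that cleaves activin precursors, had a log2 fold change of -0.2 (standard error 0.1), and *Fstl1*, a follistatin-like protein, -0.11 (standard error 0.17). Neither passed.

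Of 10 tested transducers and intracellular regulators, none was higher and 2 were lower. The count turned to 1 higher and 0 lower without the array labelled wildtype 2 and was 1 higher and 2 lower without wildtype 3. Those fits called 20.4% and 31.4% of all tested probes. None was called without wildtype 1, without any array labelled knock out, or under cyclic loess or median scaling. The same held with a block for replicate number on the authors' table, and the remaining alternatives gave 1 lower. *Smad2*, *Smad3* and *Smad4*, which carry the activin signal, did not pass. Their log2 fold changes were 0.26, 0.33 and 0.33, with standard errors of 0.15, 0.19 and 0.17. *Smurf1*, a ubiquitin ligase for Smads and receptors, fell by 0.57 (adjusted p = 0.045) and was called under 3 of 16 alternatives. *Tgif1*, a corepressor of Smad2 and Smad3, fell by 0.39 by its brightest probe (adjusted p = 0.048), while its remaining probes read 0.32 and 0.36 higher (standard errors 0.38 and 0.25), so the probes disagree. The fall was not called with any 1 of the 6 arrays left out, nor under 5 others of the 17 alternatives, the mean of its probes among them.

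Of 6 tested target genes of Smad2 and Smad3, none passed, and their median log2 fold change was -0.23. *Ccn2*, a matricellular growth factor gene, had a log2 fold change of -0.16 (standard error 0.11), *Pmepa1*, a feedback inhibitor, -0.58 (standard error 0.21) and *Junb* -0.52 (standard error 0.46). *Junb* varied most within the arrays labelled wildtype (SD 1.01). Without the array labelled wildtype 3, 1 of the 6 was called lower, in the fit that called 31.4% of all tested probes.

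**Figure D4:**
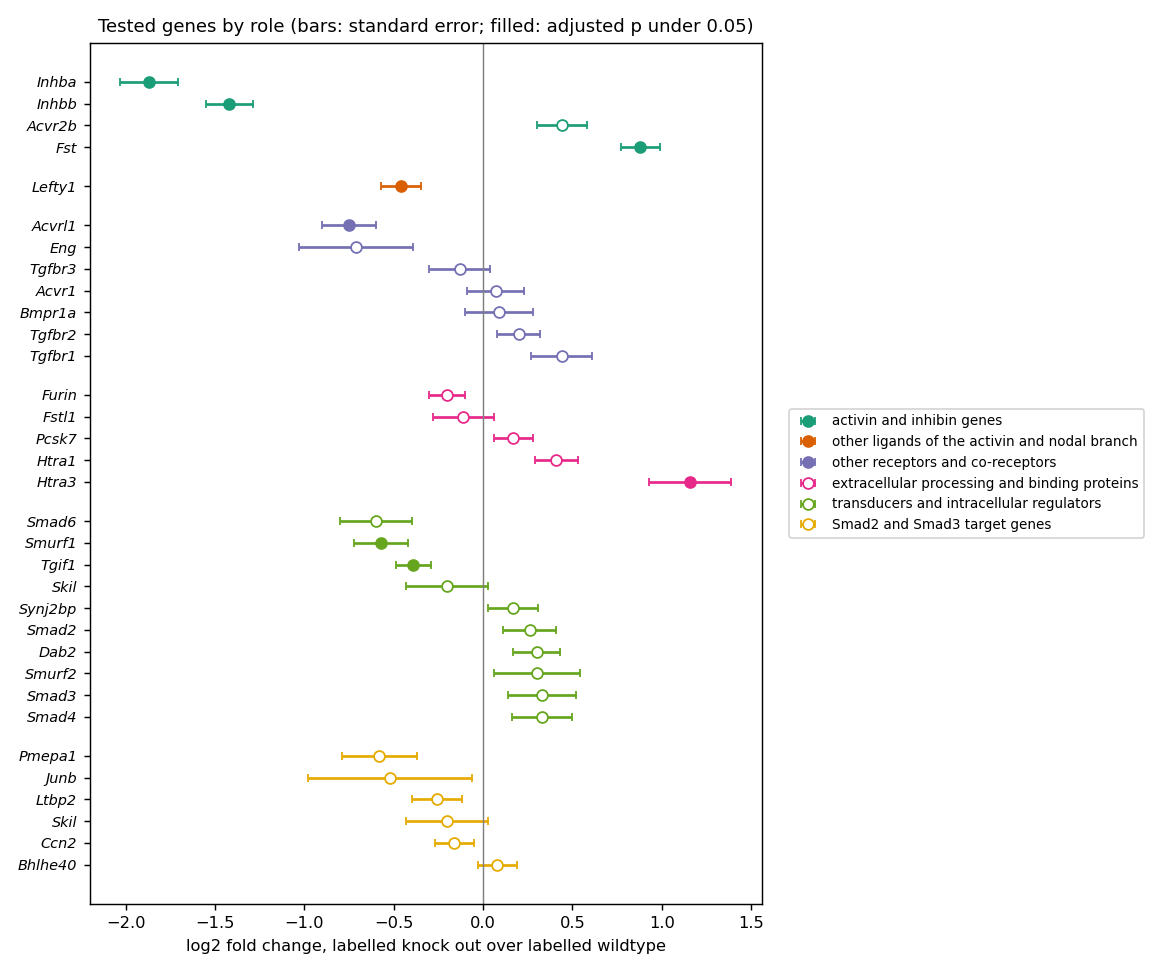
Log2 fold change (horizontal axis, arrays labelled knock out over those labelled wildtype) with its standard error for each tested gene, by role, filled where the adjusted p was under 0.05. Inhba, Inhbb and Fst lie outside the range of most other genes, and of the 28 others (Skil is drawn under both of its lists) Htra3 is filled as higher and Lefty1, Acvrl1, Smurf1 and Tgif1 as lower.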

How the data were processed

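Total RNA was made into biotinylated cRNA and hybridized to Illumina MouseRef-8 arrays. The authors deposited scanner intensity values taken from BeadStudio, each followed by its detection p-value, and a table of log2 values that they normalized with lumi by quantile normalization (version not given in the sources used here). Intensities were not normalized by the authors, with medians from 85.1 to 108.9.

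The tables name probes differently. All 25697 probes were linked one to one by their ranks on the 4 arrays whose names occur in both, and in 4295 of 4295 scanner identifiers with several named probes all fell on 1 gene. Probes were named from the platform annotation (23978 probes with 1 gene, none with several, 1719 not listed) and symbols updated through RefSeq (GRCm38.p6).

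Background correction and quantile normalization used neqc of limma 3.58.1 in R 4.3.3 (offset 16). lmFit and eBayes had no covariate, and p-values were adjusted by Benjamini-Hochberg over all 11089 tested probes. The test was tested on simulated data. With 3 arrays per group their number limits the precision, and p-values measure the spread between arrays, which may be technical. The brightest probe stands for a gene. All 9 genes were described. Up to 3 called genes of each pathway list were named, others were named after their values were seen. The genes and lists were chosen with earlier results of these data known. The alternatives changed background, scaling, filter, variance model, table, replicate block and probe choice, or left out 1 array. Replicate numbers were not taken to pair the arrays, since the labels do not say whether they do.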

Additional observations from a re-analysis of the deposited data

How the results depend on the processing

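The counts over all tested probes were 982 higher and 1022 lower. Median scaling gave 521 and 572. Leaving out 1 array gave 399 to 1662 higher and 343 to 1825 lower, the most without the array labelled wildtype 3, and from 399 to 526 higher without the array labelled wildtype 1 or any array labelled knock out. Of the activin and inhibin genes, 1 was called higher, but 0 under median scaling (*Fst* lost) and 1 to 2 with 1 array left out (*Acvr2b* gained without wildtype 3). 2 were called lower in every fit. The brightest probe of *Tgif1* fell, but the mean of its tested probes was 0.1 higher on the log2 scale. With the replicate block, fitted on the authors' normalized table, 718 probes were higher and 613 lower, against 1074 and 1055 in that table without the block. The calls for *Inhba*, *Inhbb*, *Fst* and *Acvr2b* were unchanged, and *Lefty1* and *Tgif1*, called in that table without the block, were not called with it. Deviations from the group means correlated at r = 0.105, -0.055 and -0.05 between arrays of the same number, and only number 1 correlated best with its own, so the numbers were not taken as pairs. A slide block was not run, since no slide is given in the headings used here.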
